A study of Mus musculus with 6 samples.

Results

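The genes described here carry iron into the cell, store it and carry it out again. They are 10 named genes out of 54532 genes counted: *Slc40a1*, *Cp*, *Fth1*, *Ftl1*, *Tfrc*, *Steap3*, *Slc11a2*, *Slc11a1*, *Ireb2* and *Aco1*. The genes were listed by symbol, with earlier results of these data known. RNA was sequenced from cultured mouse cells that the labels call dendritic cells, in 3 control libraries and 3 libraries treated with DB2313, an inhibitor of Spi1 (PU.1), the transcription factor that directs myeloid gene expression. Neither strain, age, dose nor time is given in the labels, which also do not say whether the libraries of a group came from separate cultures or animals, so p-values measure the spread between these libraries, which may be technical. The study's methods speak of macrophages where the labels speak of dendritic cells. The count columns are named BMDC and SPI1, and the SPI1 columns were read as the DB2313 libraries because Spi1 is the target of DB2313, a reading that the labels do not state.

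Iron bound to transferrin enters a cell through the transferrin receptor *Tfrc*, is reduced in the endosome by *Steap3* and crosses the endosomal membrane through *Slc11a2* (DMT1). Phagocytes also use *Slc11a1* (NRAMP1) to move iron and other metals out of the phagosome. Spare iron is stored in ferritin, a shell built from the heavy chain *Fth1* and the light chain *Ftl1*, and leaves the cell through ferroportin, *Slc40a1*, the only known cellular iron exporter, with ceruloplasmin, *Cp*, as a ferroxidase that oxidizes the exported iron. The RNA-binding proteins *Ireb2* (IRP2) and *Aco1* (IRP1) bind hairpins called iron-responsive elements when iron is scarce, which blocks translation when the hairpin lies in the 5′ untranslated region and protects the transcript when hairpins lie in the 3′ untranslated region.

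These hairpins are shown because some of the members are known to be controlled through them, and because RNA counts do not read their translational arm. The reference transcripts of all 21901 protein-coding genes (GENCODE M21, build GRCm38) were searched for an unpaired C, 5 bases, the loop CAGTGN and 5 bases that pair with the first 5, allowing G to pair with T. A match occurred in 4 of the 10 iron genes, against 294 genes or 1.34% of all protein-coding genes. In the 5′ untranslated region 0.142% of genes held a match, and in the 3′ untranslated region 0.589% did. Each line gives a gene and the matched element with its flanks on the coding strand, the loop in capitals.
Slc40a1 5′ UTR, chr1:45925465-45925493, minus strand: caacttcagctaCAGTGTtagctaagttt
Fth1 5′ UTR, chr19:9982732-9982760, plus strand: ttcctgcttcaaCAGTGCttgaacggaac
Ftl1 5′ UTR, chr7:45459779-45459807, minus strand: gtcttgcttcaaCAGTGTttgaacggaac
Tfrc 3′ UTR, chr16:32631219-32631247, plus strand: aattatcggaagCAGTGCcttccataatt
Tfrc 3′ UTR, chr16:32631598-32631626, plus strand: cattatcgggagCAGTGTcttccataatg
Tfrc 3′ UTR, chr16:32631663-32631691, plus strand: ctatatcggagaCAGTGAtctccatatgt
Tfrc 3′ UTR, chr16:32631710-32631738, plus strand: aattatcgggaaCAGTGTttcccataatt

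The exporter and both ferritin chains therefore each had 1 match ahead of the coding sequence, and *Tfrc* had 4 matches behind it. The *Slc40a1* match was in 1 of its 4 coding transcripts, the *Fth1* match in 4 of 5, the *Ftl1* match in 1 of 2 and the *Tfrc* matches in 1 of 3. The search required an unbroken stem, so hairpins with a bulge in that stem were not matched, and a match is a description of the letters, not of binding.

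**Figure D1:**
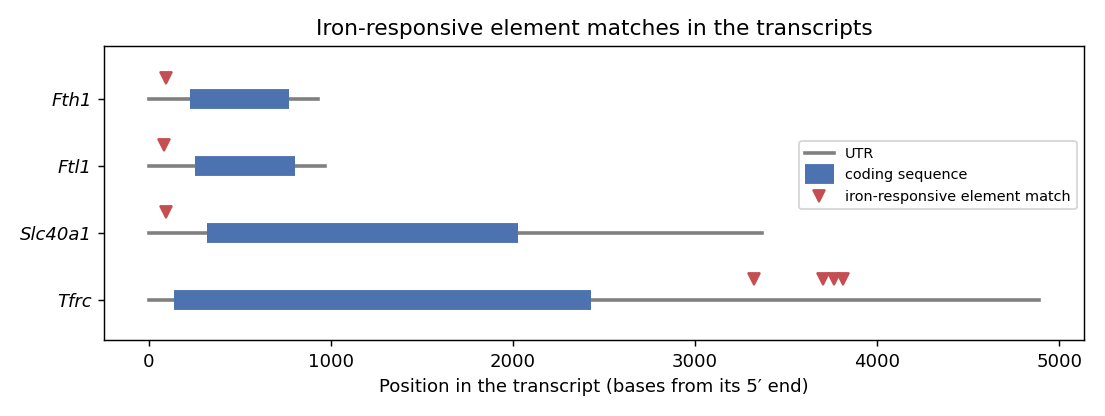
Reference transcripts of the 4 iron genes with a match, drawn to scale in bases from the 5′ end, with the untranslated regions as grey lines, the coding sequence in blue and the start of each match as a red triangle. The matches of Fth1, Ftl1 and Slc40a1 lie before the coding sequence, and the 4 of Tfrc lie between 892 and 1383 bases after it.

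The libraries held 16146743 to 19764677 counted reads. DB2313 replicates 1 and 3 stood farther apart than any other pair, with a chi-square per degree of freedom over genes of 19.4, against 5.03 to 5.58 between control replicates and 7.96 and 9.33 for the other DB2313 pairs. Of 14174 genes with enough reads to test, edgeR's quasi-likelihood test called 10.6% changed at a Benjamini-Hochberg adjusted p under 0.05, with 4.66% higher and 5.94% lower in DB2313. In 27.4% of these genes the groups did not overlap in CPM. CPM gives a gene's reads as a rate of its library's reads in the genes tested (counts per megaread, after TMM scaling). All 10 iron genes passed the filter on low counts. Of these, 3 were called changed, 2 higher and 1 lower, and in 5 the groups did not overlap. Their median log2 fold change was 0.06, beside 0.0008 over all genes tested.

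The labelled cell type was checked against its markers. *Itgax*, *Flt3*, *Zbtb46*, *H2-Ab1* and *Cd74* were all detected, at 33.0 to 6557 CPM in control, whereas *Xcr1* and *Clec9a* were near absent, at 1.04 and 0.77 CPM, and *Cd209a* stayed under the filter. Macrophage markers were also high, with *Lyz2* at 8751 CPM and *Csf1r* at 689 CPM in control, and neutrophil and basophil markers were present, with *S100a8* at 1055 CPM and *Mcpt8* at 618 CPM, so markers of several myeloid types were present. In such bulk samples, fewer cells of a type and less RNA per cell cannot be told apart.

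On a per-length scale (CPM per kilobase of the gene length in the table), the ferritin chains stood far above the other iron genes in control cells. *Fth1* had 6720 ± 259 and *Ftl1* 2569 ± 150 CPM per kilobase (SD, n = 3), and the next gene, *Slc11a1*, had 32.6 ± 2.0, so that *Ftl1* was 78.8 times higher. *Aco1* followed at 28.5 ± 1.7 and *Tfrc* at 25.8 ± 1.7, and the ranges of these neighbours overlapped. *Ireb2* at 8.21 ± 0.25 and *Slc40a1* at 7.47 ± 0.60 overlapped as well. *Slc11a2* had 3.86 ± 0.10, and *Steap3* at 2.29 ± 0.31 overlapped with *Cp* at 2.00 ± 0.20. These lengths differ from those of the reference transcripts searched for hairpins. *Slc40a1* has 9000 bases in the table and 3370 in the transcript, *Tfrc* 6185 and 4890, *Ftl1* 1340 and 968, and *Fth1* 866 and 929. The order of the genes below ferritin may therefore depend on the length used. *Fth1* alone took 0.576% of all counted reads in control and 0.609% in DB2313.

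Both export genes rose. *Slc40a1* (ENSMUSG00000025993, chr1:45908068-45926523, minus strand) had 72.5, 61.7 and 67.5 CPM in the 3 control libraries and 117, 126 and 148 CPM in the 3 DB2313 libraries. Every DB2313 library lay above every control library, and the lowest of them was replicate 1. The level was 1.94 times higher, a log2 fold change of 0.96 ± 0.10 (SE), with an adjusted p of 1.58e-05 by edgeR. In raw counts, this was 983 to 1179 reads against 1925 to 2512. The call was kept in all 17 alternatives tried, with log2 fold changes between 0.85 and 1.03.

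*Cp* (ENSMUSG00000003617, chr3:19957054-20009145, plus strand) had 21.3, 18.6 and 17.7 CPM in control and 23.9, 31.3 and 39.2 CPM in DB2313. The groups did not overlap, but DB2313 replicate 1 lay close to the highest control library, so the rise was unequal between the treated libraries. The level was 1.64 times higher, or 0.71 ± 0.15 (SE) on the log2 scale, at an adjusted p of 0.00604, and the call was kept in all 17 alternatives, between 0.53 and 0.88. The annotated span of *Cp* overlaps that of *Hps3* on the opposite strand by 13201 bases, introns included. The longest stretch aligned between their transcripts was 109 bases at 100% identity, against a gene length of 9566 bases for *Cp*. *Hps3* had 723 to 821 reads in control and 666 to 944 in DB2313, against 282 to 346 and 394 to 652 for *Cp*. Strand use in counting is not given in the sources used here, so reads in the overlap cannot be told apart.

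**Figure D2:**
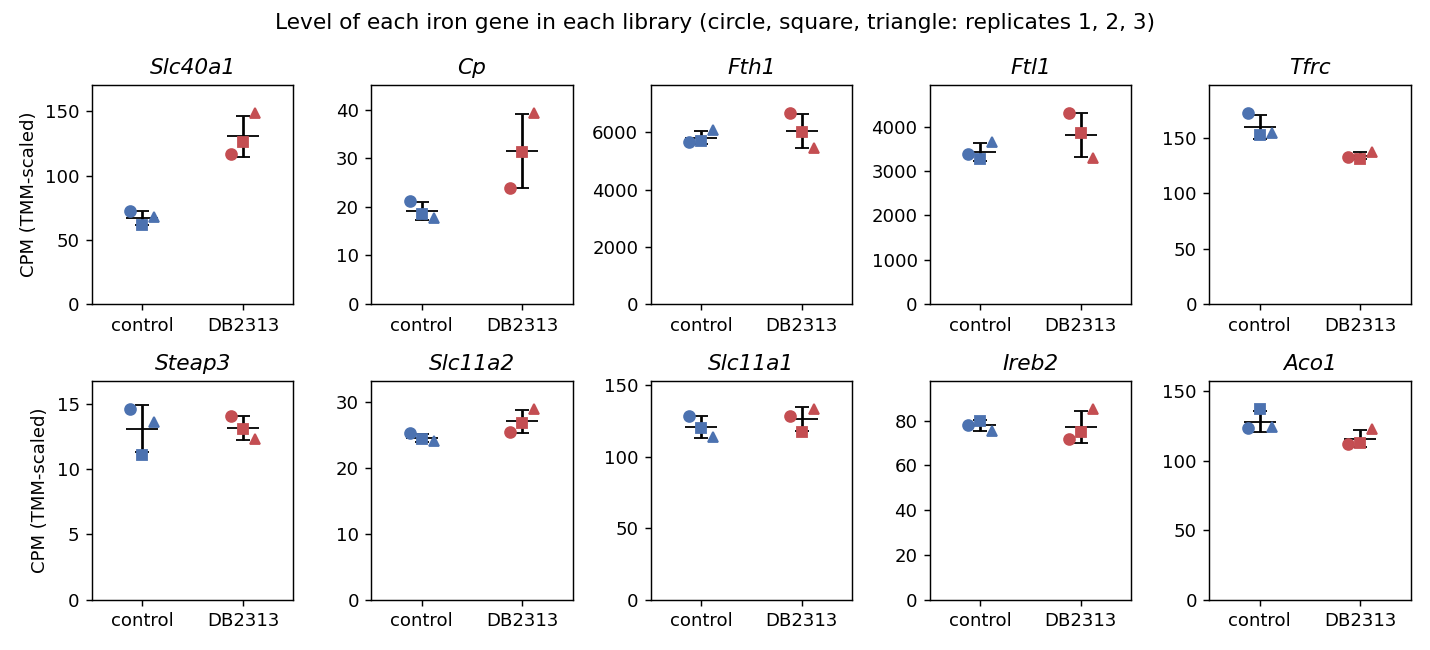
CPM of each iron gene in the 3 control (blue) and 3 DB2313 (red) libraries, with the marker shape giving the replicate and the black bars the mean and 1 SD. Slc40a1 lies at 61.7 to 72.5 in control and 117 to 148 in DB2313, Cp, Tfrc, Slc11a2 and Aco1 also show no overlap between the groups, and in both ferritin genes DB2313 replicate 3 lies within or below the control values.

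The storage genes were the most abundant members and were not called changed. *Fth1* (chr19:9982703-9985092, plus strand) had 5672, 5708 and 6077 CPM in control and 6663, 6022 and 5466 CPM in DB2313, that is, 0.06 ± 0.07 (SE) higher on the log2 scale, at an adjusted p of 0.719. The groups overlapped fully, since DB2313 held both the highest library, replicate 1, and the lowest, replicate 3. The sign of this small difference turned without DB2313 replicate 1, at -0.017, and with a correction for gene length, at -0.04.

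*Ftl1* (chr7:45457944-45459884, minus strand) had 3395, 3269 and 3663 CPM in control and 4307, 3862 and 3295 CPM in DB2313. Replicates 1 and 2 of DB2313 lay above all control libraries and replicate 3 lay among them. On the log2 scale the difference was 0.15 ± 0.09 (SE), at an adjusted p of 0.326. Without DB2313 replicate 3 it was 0.25 with an adjusted p of 0.00685, so that 1 library decided whether *Ftl1* was called.

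Ferritin has many near-identical copies, which can share reads with the parent gene. For *Ftl1*, 13 annotated rows aligned at 95% identity or more over at least 100 bases, and 9 of them had reads, together 2.7% of the *Ftl1* count. The highest was *Ftl1-ps1*, 99.56% identical, with 1295, 1125 and 1414 reads in control and 1528, 1931 and 1489 in DB2313. Of the 13 rows, *Gm10252*, with 150 reads over all libraries, and *Gm22133*, with 0, overlap the *Ftl1* locus itself and are not separate copies. After *Ftl1-ps1*, the separate copies *Gm15590* and *Ftl2-ps* had the most reads, 828 and 120 over all libraries. The 1 copy found for *Fth1*, *Gm6977*, had 0 reads in every library, and *Fth1* had no other copy at this identity. Adding the copies to their parents left both ferritin genes uncalled.

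The heavy to light chain ratio, a measure within each library, was 2.59, 2.70 and 2.57 in control and 2.39, 2.41 and 2.57 in DB2313, per base of gene length. It was lower in DB2313 by 0.09 on the log2 scale, from a mean of 2.62 ± 0.07 to 2.46 ± 0.10 (SD, n = 3). The level of the ratio depends on the lengths used, 866 bases for *Fth1* and 1340 for *Ftl1*, and on how reads shared with copies were counted. The log2 difference does not depend on the lengths and was -0.092 for raw counts too. DB2313 replicate 3 and control replicate 3 nearly met, and the groups did not overlap. The two-sided exact permutation test gave p = 0.1, the smallest p that 3 libraries against 3 allow.

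The DB2313 library with the most ferritin RNA also held the most RNA of several marker lists, neutrophil markers among them. The summed CPM of 11 neutrophil markers was 4829, 5055 and 5427 in control and 6441, 5365 and 4879 in DB2313, highest in the library with the most *Fth1* and *Ftl1* and low in DB2313 replicate 3. *Ltf*, the iron-binding granule protein lactoferrin, had 788, 846 and 882 CPM in control and 1119, 947 and 899 in DB2313. Of the neutrophil markers 3 of 11 were called, all higher, which is 27.3% beside 10.6% of all genes tested. The list median log2 fold change was 0.16, and DESeq2 called 5. *Slc40a1* and *Cp* were lowest, among the DB2313 libraries, in that same replicate 1. Among the DB2313 libraries, the summed dendritic cell, mast cell and basophil, erythroid, T cell, B cell and iron-recycling macrophage markers were likewise highest in replicate 1, and the macrophage and proliferation markers in replicate 3. With a correction for gene length, the log2 fold change was 0.08 for *Ftl1*, -0.04 for *Fth1*, 1.01 for *Slc40a1* and 0.77 for *Cp*. The part of these cells in the iron genes' levels was not tested.

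**Figure D3:**
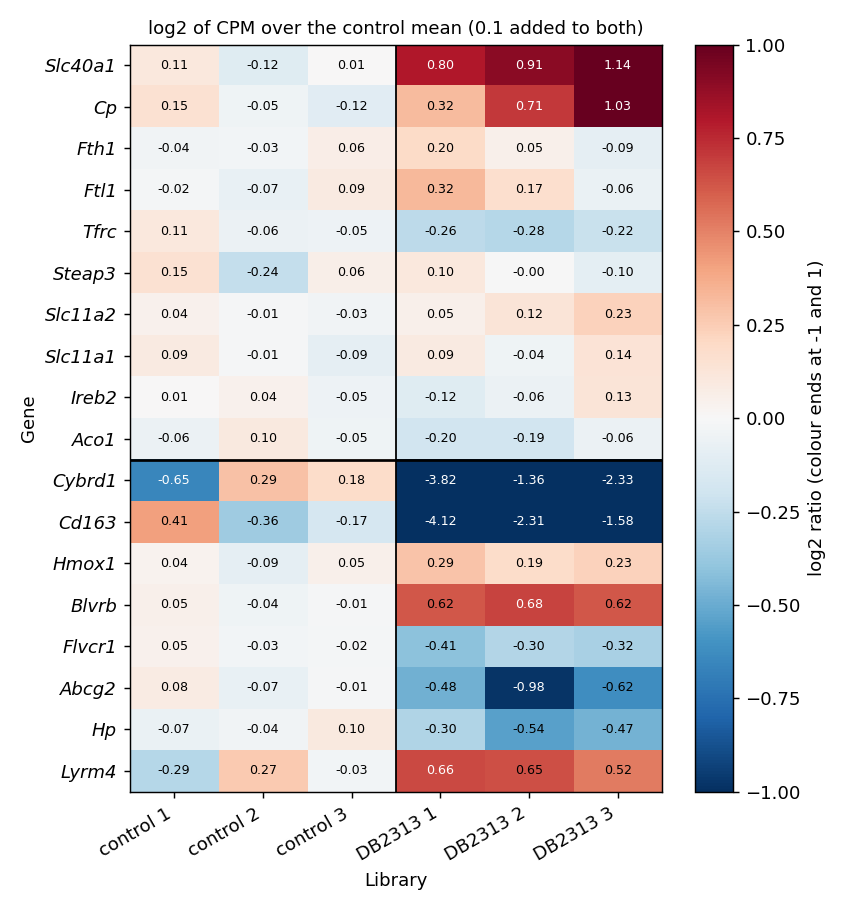
Log2 of CPM over the control mean, with 0.1 CPM added to both, for the 10 iron genes (above the line) and the 8 other iron-handling genes called changed, in each library. Colours end at -1 and 1 and the numbers give the values. Slc40a1 runs from 0.80 to 1.14 in the DB2313 libraries and Cp from 0.32 to 1.03, whereas Ftl1 runs from 0.32 to -0.06.

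Of the uptake genes, *Tfrc* fell and the others were not called. *Tfrc* (ENSMUSG00000022797, chr16:32608920-32632794, plus strand) had 172, 153 and 154 CPM in control and 133, 131 and 137 in DB2313. No DB2313 library reached the lowest control library, and control replicate 1 stood above the other two. On the log2 scale it differed by -0.26 ± 0.07 (SE), at an adjusted p of 0.0347, so the level was 0.838 times that of control. The direction held in all 17 alternatives, but the call was lost in 6 of them. Among these, the adjusted p was 0.0624 when libraries were scaled by their totals alone, 0.191 without control replicate 1, 0.0834 without control replicate 2, 0.0848 without control replicate 3 and 0.181 without DB2313 replicate 2.

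The ratio of *Tfrc* to *Fth1*, which sets uptake RNA against storage RNA within a library, was 0.00424, 0.00375 and 0.00355 per base in control and 0.00279, 0.00305 and 0.00351 in DB2313. The groups did not overlap, although control replicate 3 and DB2313 replicate 3 nearly met. The mean log2 difference was -0.31, and the two-sided exact permutation test again gave its smallest possible p = 0.1.

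*Steap3*, the endosomal ferrireductase (chr1:120190757-120272705, minus strand), had 14.6, 11.1 and 13.6 CPM in control and 14.1, 13.1 and 12.3 in DB2313. The log2 difference was 0.005 ± 0.14 (SE), its adjusted p was 0.989, and it had 177 to 261 reads a library. *Slc11a2*, the endosomal iron transporter (chr15:100387898-100425072, minus strand), had 25.2, 24.3 and 24.0 CPM in control and 25.4, 26.7 and 28.8 in DB2313. Its groups did not overlap, but the gap was small beside the spread, at 0.14 ± 0.10 (SE) on the log2 scale and an adjusted p of 0.439. *Slc11a1*, the phagosomal transporter (chr1:74375195-74386062, plus strand), had 129, 120 and 114 CPM in control and 128, 117 and 133 in DB2313, with overlapping groups, a log2 difference of 0.06 ± 0.08 (SE) and 0.698 as the adjusted p.

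The RNA-binding regulators were not called either. *Ireb2* (chr9:54863789-54912530, plus strand) had 78.1, 80.0 and 75.3 CPM in control and 71.6, 74.9 and 85.1 in DB2313, so DB2313 held both the highest and the lowest library. The log2 difference was -0.01 ± 0.08 (SE), and its adjusted p was 0.953. *Aco1* (chr4:40143081-40198338, plus strand) had 123, 137 and 124 CPM in control and 112, 112 and 123 in DB2313. The groups of *Aco1* nearly met without overlapping, and the log2 difference was -0.15 ± 0.08 (SE), at an adjusted p of 0.264. Both proteins are regulated after transcription, *Aco1* by its iron-sulfur cluster and *Ireb2* by breakdown, which these counts do not read.

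**Figure D4:**
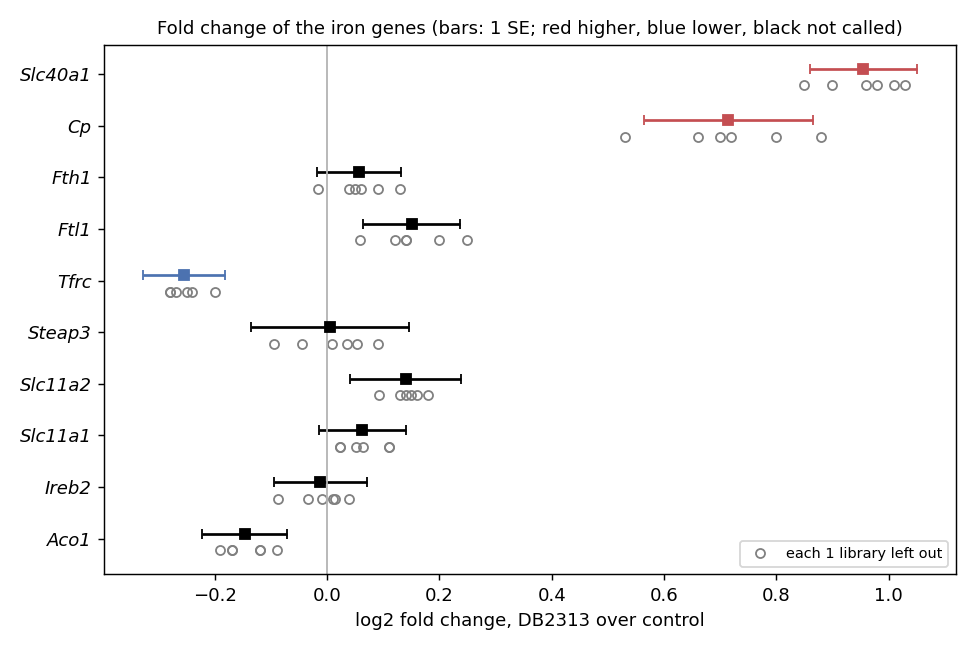
Log2 fold change of each iron gene in DB2313 over control (squares, with 1 SE), red where called higher, blue where called lower and black where not called, and the same value with each library left out in turn (open circles). Slc40a1 at 0.96 and Cp at 0.71 stay well above 0 in every omission, Tfrc at -0.26 stays below 0, and Fth1, Ireb2 and Steap3 cross 0.

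The promoters were searched for the core of the Spi1 binding site because the treatment targets that factor. RefSeq (GRCm38.p6) gave 14 promoters, from 250 bases before to 50 bases after the start, for 8 of the 10 genes, and none for *Slc40a1* and *Slc11a2*. The core GAGGAA, read on both strands, was in 4 of the 14 promoters, those of *Slc11a1*, *Ireb2* and *Steap3*, against 28.3% of all 32851 promoters. The longer GAGGAAGT, which contains the core, was in 0 of them, against 3.2% of all, and the antioxidant element TGACNNNGC was in 0, against 12.4%. Neither *Cp* nor *Tfrc* held any of these letters in the window, and bases outside it were not searched. With only 14 promoters, the 0 counts cannot show a lack of these motifs, and they were not tested against the shares of all promoters.

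The wider set of iron-handling genes numbered 81 in 5 lists, of which 68 could be tested. Of these, 8 were called, 3 higher and 5 lower, which is 11.8% beside 10.6% of all genes, and their median log2 fold change was 0.02. The count was 3 without control replicate 1, control replicate 3 or DB2313 replicate 2, 4 without control replicate 2, and 20 without DB2313 replicate 3. Calls over all genes tested moved the same way, from 1503 with all libraries to between 739 and 854 in the omissions that gave 3 or 4. Without DB2313 replicate 3 they numbered 2408, so these shifts were not confined to iron-handling genes. Whether the shifts were larger for iron-handling genes was not tested. *Blvrb* and *Hp* were called in all 17 alternatives.

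Genes of heme import, breakdown and synthesis held 6 of the 8 calls. Of the 22 tested, 27.3% were called, beside 10.6% of all genes tested, and DESeq2 called 5. *Blvrb*, a biliverdin reductase, had 136, 127 and 130 CPM in control and 202, 209 and 202 in DB2313, tight groups far apart, 0.64 ± 0.07 (SE) higher on the log2 scale at an adjusted p of 2.58e-05. *Hmox1*, heme oxygenase 1, which frees iron from heme, had 183, 167 and 185 CPM in control and 217, 203 and 209 in DB2313, a log2 rise of 0.24 ± 0.07 (SE) at an adjusted p of 0.0437. That call was lost in 7 of 17 alternatives, among them each omission of 1 library except DB2313 replicate 3, with adjusted p of 0.0639 to 0.209, and a correction for gene length, 0.0523. *Slc48a1*, which carries heme out of the phagolysosome, had a log2 fold change of 0.17 and an adjusted p of 0.121, or 0.0361 without DB2313 replicate 3.

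The other 4 called genes of that list were lower. *Hp*, haptoglobin, which binds free hemoglobin, went from 237 ± 15 to 175 ± 16 CPM (SD, n = 3), -0.44 on the log2 scale at an adjusted p of 0.0022. *Flvcr1*, a heme exporter, had a log2 fold change of -0.34 and an adjusted p of 0.0197, which passed the threshold in 12 of 17 alternatives and was 0.065 to 0.0911 without any 1 control library and 0.069 without DB2313 replicate 2. *Abcg2*, a transporter of porphyrins and drugs, had a log2 fold change of -0.70 and an adjusted p of 0.0471, and lost the call in 8 of 17, at 0.113 to 0.207 without DB2313 replicate 2 or any 1 control library. *Cd163*, the scavenger receptor for hemoglobin bound to haptoglobin, was rare, with 36, 20 and 23 reads in control and 0, 5 and 8 in DB2313, and its log2 fold change of -2.71 had an adjusted p of 0.0123, or 0.0874 without control replicate 1 and 0.0671 without DB2313 replicate 2. Without 1 library the *Cd163* value ran from -2.17, without DB2313 replicate 1, to -3.53, without DB2313 replicate 3.

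Among 22 genes of mitochondrial iron and iron-sulfur clusters, 1 (4.55%) was called. *Lyrm4*, a partner of the cysteine desulfurase, had a log2 fold change of 0.62 and an adjusted p of 0.03, at 0.143 without control replicate 1, 0.0987 without control replicate 3 and 0.113 without DB2313 replicate 2. *Slc25a37*, the mitochondrial iron importer mitoferrin 1, had a log2 fold change of 0.04 and an adjusted p of 0.864.

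Of 12 uptake and reduction genes 1 (8.33%) was called, *Cybrd1*, a ferric reductase, with 13, 26 and 24 reads in control and 0, 9 and 3 in DB2313. The log2 difference was -2.52, at an adjusted p of 0.0247, or 0.125 without control replicate 2 and 0.0983 without control replicate 3. Without 1 library it ran from -1.99, without DB2313 replicate 1, to -3.75, without DB2313 replicate 2. Of 9 storage and sensing genes 0 were called by edgeR, DESeq2 or limma-voom, and 2 had an unadjusted p under 0.05. In this list, the ferritin autophagy receptor *Ncoa4* had a log2 fold change of 0.08, the iron chaperone *Pcbp1* -0.04 and *Fbxl5*, the ligase component that removes *Ireb2*, -0.07, with adjusted p of 0.684, 0.781 and 0.669. Of the list of export, hepcidin and iron-binding proteins only *Ltf*, *Lcn2* and *Furin* could be tested. Of these 0 were called by edgeR and limma-voom, 1 had an unadjusted p under 0.05, and DESeq2 called 1, *Ltf*. For both lists, the share of all genes with an unadjusted p under 0.05 was not computed. The hepcidin gene *Hamp* had at most 6 reads in a library.

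**Figure D5:**
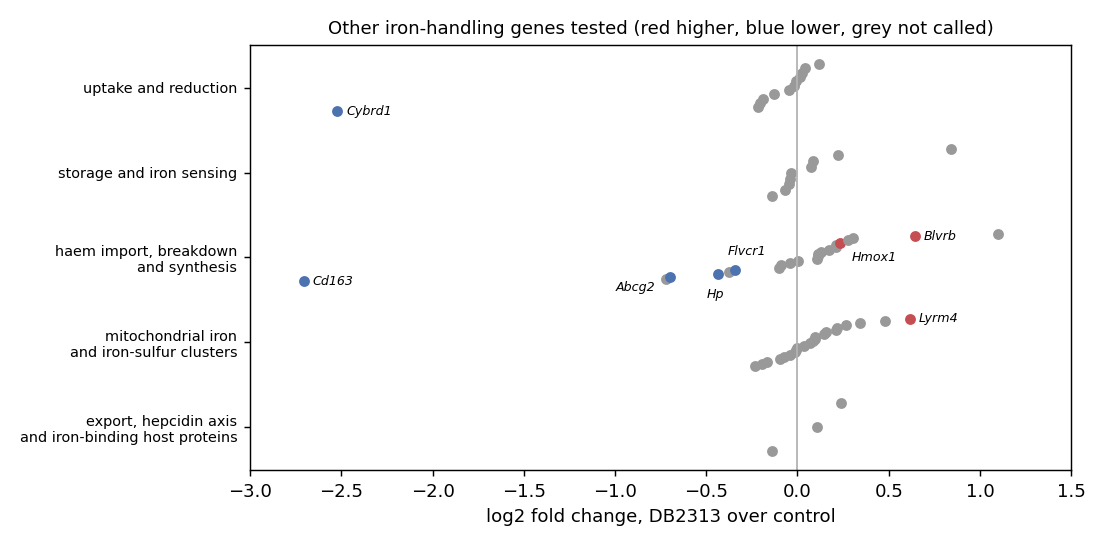
Log2 fold change in DB2313 over control of the 68 other iron-handling genes tested, by list, with genes called higher in red, called lower in blue and not called in grey. Cd163 and Cybrd1, both with at most 36 reads in a library, lie far to the left at -2.71 and -2.52, and Blvrb at 0.64 and Lyrm4 at 0.62 lie to the right among the called genes.

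Iron-recycling macrophages, which clear red cells in spleen and liver, are known for high ferroportin, and their markers were set beside *Slc40a1*. Of 8 such markers 6 could be tested, 3 were called lower and 1, *Hmox1*, higher, with a median log2 fold change of -0.82. That is 66.7% of those tested, beside 10.6% of all genes tested. *Spic*, the transcription factor that defines these cells, had 35, 54 and 39 reads in control and 10, 23 and 15 in DB2313, and *Cd5l* had 34, 16 and 14 against 7, 3 and 5. *Vcam1* and *Nr1h3* had log2 fold changes of 0.17 and -0.085 and were not called, and *Clec4f* and *Timd4* stayed under the filter. The summed level of the 8 markers was 186 to 201 CPM in control and 213 to 230 in DB2313, of which *Hmox1* made up most. The part of such cells in the level of *Slc40a1* was not tested.

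Markers of other types moved with the groups as well. Of 11 dendritic cell markers 3 were called lower and 1 higher, which is 36.4% beside 10.6% of all genes tested. The summed level of the list was 10543 to 10788 CPM in control and 8892 to 10383 in DB2313. *Cd74*, which was not called, made up most of it, with a mean of 6557 CPM in control. Of 9 macrophage markers 4 were called lower and 1 higher (55.6%), with sums of 9791 to 11163 and 8805 to 9690 CPM. Most of these sums was *Lyz2*, which was not called, with a mean of 8751 CPM in control. Of 7 mast cell and basophil markers 1 (14.3%) was called, higher, with sums of 1263 to 1334 and 1256 to 1502 CPM. For erythroid, T cell, B cell and proliferation markers, 0 of 3, 0 of 8, 0 of 1 and 0 of 10 genes tested were called by edgeR, and none by DESeq2 or limma-voom. At an unadjusted p under 0.05 these counts were 0, 1, 1 and 3. The share of all genes tested under that cutoff was not computed, so these counts have no background. Erythroid sums were 14.6 to 17.6 CPM in control and 14.2 to 24.2 in DB2313, T cell sums 212 to 263 and 221 to 309, B cell sums 3.4 to 4.5 and 5.3 to 6.7, and proliferation sums 1225 to 1268 and 1278 to 1393. The part of these shifts in the iron genes was not tested.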

How the data were processed

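Per the labels, RNA was extracted with Trizol from control and DB2313-treated cells, and what the authors deposited is a table of unnormalized read counts by gene, with gene lengths, for 6 libraries. The submitters' processing notes name CASAVA 1.8, HISAT2 2.0.5 and featureCounts 1.5.0-p3, whereas the study's methods name LifeScope and DESeq2. The genome build, strand use and handling of reads with several matches are not given in the sources used here. Start and end matched GENCODE M21 (GRCm38) for 98.33% of the identifiers found in both, and for 9 of the 10 iron genes (not *Fth1*), so that build is given with coordinates.

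Counts of 14174 genes that passed filterByExpr were tested with edgeR 4.0.16 (TMM, quasi-likelihood F-test, Benjamini-Hochberg adjustment) in R 4.3.3, with groups only in the model. The test was run on simulated counts with known changes first. The SE is the log2 fold change divided by the root of F. Alternatives used DESeq2 1.42.0, limma 3.58.1 voom, other scaling, filters, a gene length correction, a replicate block and the omission of each library. Copies were found with blastn 2.17.0. The 10 genes, the lists and the tests were chosen with earlier results of these data known. Named were all 10 genes, each gene called in the wider lists, *Hmox1*, *Slc48a1*, *Ncoa4*, *Pcbp1*, *Fbxl5* and *Slc25a37* whatever their result, and, for each ferritin chain, the 3 copies with most reads (*Gm10252* was among them for *Ftl1* but overlaps it, so *Ftl2-ps* was added); marker genes were named after their values were seen. A gene of the wider lists is not reported here.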

Additional observations from a re-analysis of the deposited data

How the results depend on the processing

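The number of iron genes called was 2 to 4 over all alternatives, with *Slc40a1* and *Cp* called in each. No pairing by replicate number was visible, as same-numbered libraries had correlations of their deviations of 0.00351, -0.0238 and -0.121. With 3 libraries a group, this cannot show that the libraries were unpaired. With a replicate block, 2 of the 10 iron genes were called, *Tfrc* having an adjusted p of 0.0939, with 5 of the wider genes and 1131 of all genes. Over the omissions of 1 library, the wider genes called ran from 3 to 20, all genes called from 739 to 2408, those higher from 328 to 1097 and those lower from 411 to 1311. Log2 fold changes near 0 changed sign. *Fth1* was -0.04 with the gene length correction and -0.017 without DB2313 replicate 1. *Ireb2* was 0.012 with library totals, 0.049 with the gene length correction, 0.014 without control replicate 2, 0.039 without DB2313 replicate 1 and 0.01 without DB2313 replicate 2. *Steap3* was -0.095 without control replicate 2 and -0.045 without DB2313 replicate 1. *Ncoa4* and *Slc25a37* were -0.0034 and -0.0075 without control replicate 3, and -0.012 and -0.024 without DB2313 replicate 3. Over the omissions of 1 library these genes reached 0.13 for *Fth1*, -0.087 for *Ireb2*, 0.09 for *Steap3*, 0.18 for *Ncoa4* and 0.13 for *Slc25a37* at the other end. The causes were not tested. Both ratios kept their direction in all alternatives. Adding every near-identical copy to *Ftl1* and *Fth1*, chosen after the data were seen, left every count of calls as it was. Precision was limited by 3 libraries a group.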
